A study of Delphinium anthriscifolium with 89 samples.

Results

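Lateral non-spurred petals were compared with lateral non-spurred sepals at floral stage S10 in *Delphinium anthriscifolium*, a larkspur of the buttercup family. The libraries were chosen by their sample titles: 3 of lateral petals and 3 of lateral sepals, 6 of the 89 RNA-seq libraries of the series. All 6 are labelled wild type, and their labels give no treatment. The series holds 85 wild-type libraries, of 2 petal types, 3 sepal types, stamens and carpels at stages S9, S10, S12 and S16, and of leaves and bracts, both from just below the S9 buds. A further 4 libraries, from a gene silencing experiment, were not used here. Set beside the lateral S10 libraries were lateral petals and lateral sepals at S12 and at S16, and dorsal spurred petals and dorsal spurred sepals at S10, each with 3 wild-type libraries a group. Groups of S9 had 2 libraries and leaves and bracts had 4 each.

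Sepals are the outermost organs of a flower and petals stand inside them. In flowering plants generally, petal identity rests on MADS-box transcription factors of the B class, which also act in stamens and which sepals usually lack. In larkspurs the sepals are large and coloured like petals, while the petals are small and lie near the stamens, so both organs of this comparison are showy at maturity.

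The 6 libraries held between 4866644 and 7705356 estimated counts, and between 17897 and 21695 of the 32115 features of the assembly had a count in a library. Levels are given as CPM, counts scaled to one common library total, and a feature with 3 counts in 1 of these libraries stood at 0.389 to 0.616 CPM. Such floors cover counting error only. The feature IDs have the form of assembled transcripts with predicted reading frames, and the files do not pair them with gene names. The labelled organs could therefore not be checked against named markers, few features are named, and no role is given to any of them. The labels do not state whether the replicates were taken from different plants, and the spread behind the p-values may therefore be technical. In bulk tissue, fewer cells of a kind and less RNA per cell cannot be told apart.

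Lateral petal replicate 1 stood apart from the other petal libraries. Its log2 CPM values correlated at 0.867 and 0.864 with petal replicates 2 and 3, which correlated at 0.926 with each other, and it had the fewest features detected, 17897. Features high in stamens, defined further on, summed to 17200 CPM in it, against 6730 and 6500 CPM in petal replicates 2 and 3 and 7070, 6310 and 6330 CPM in sepal replicates 1, 2 and 3. Lateral sepal replicate 1 also stood apart in these correlations, at 0.891 and 0.865 with sepal replicates 2 and 3, against 0.927 between those. The main counts are given with and without petal replicate 1.

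Lateral petals differed from lateral sepals at S10 mostly by features that were lower in petals. Of 18054 features tested, 1431 (7.93%) were called by edgeR's quasi-likelihood test at a Benjamini-Hochberg adjusted p under 0.05. Of these, 313 (1.73% of those tested) were higher in petals, called the higher set from here on, and 1118 (6.19%) were lower, the lower set. The median log2 fold change, petals over sepals, was -2.30 for the lower features, 1.48 for the higher features and 0.0159 over all features tested. At least 4-fold were 94 of the higher and 667 of the lower features, and at least 16-fold 25 and 232. The groups did not overlap in CPM for 5013 of the features tested (27.8%), most of which were not called.

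The number of calls depended on single libraries, while the excess of lower features did not turn round in any fit run. Without petal replicate 1 there were 1373 calls, 268 higher (1.43% of 18693 tested) and 1105 lower (5.91%). Without petal replicate 2 or 3 there were 907 and 829 calls, and without sepal replicate 1 or 2 there were 950 and 823. The higher calls numbered 119 and 141 without petal replicate 2 or 3, and 120 without sepal replicate 2. With the spread estimated from all 22 lateral libraries there were 860 calls, 88 of them higher, and DESeq2 called 2195, 569 of them higher. On simulated counts with known changes DESeq2 made more false calls than its nominal share, while edgeR did not. The larger DESeq2 counts are therefore not read as differences that edgeR missed. The lower share of the calls was 78.1% with all 6 libraries and between 77.1% and 86.9% with any 1 left out.

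**Figure D1:**
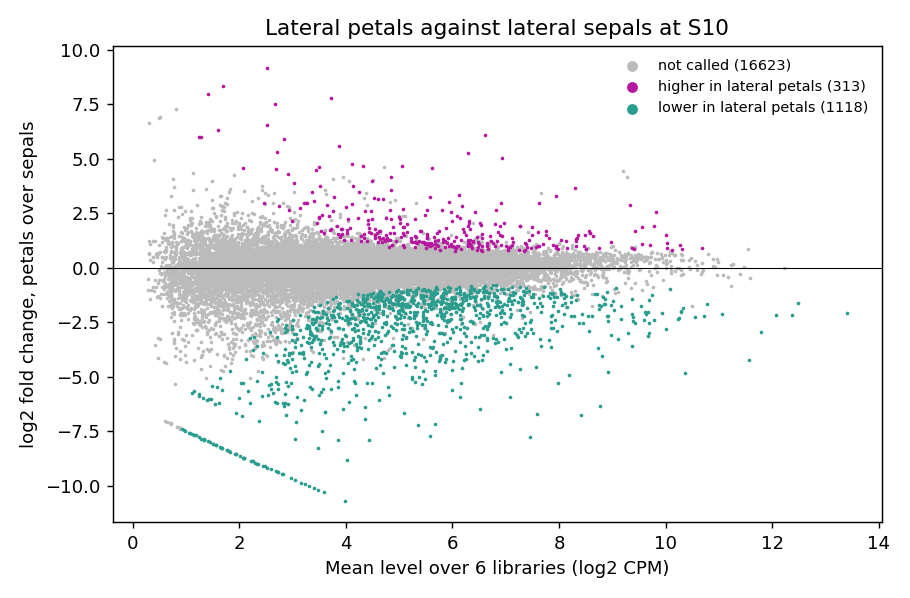
Each point is a feature, with its mean level over the 6 libraries (log2 CPM) on the x axis and its fitted log2 fold change, lateral petals over lateral sepals, on the y axis. The 313 features called higher and the 1118 called lower are coloured, and more of the called features lie below 0 than above it; the slanting line of points at the lower left holds features at 0 in all petal libraries, whose fitted fold is no bound.

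The sets took different shares of the RNA. The 1118 lower features held 5.81%, 5.76% and 4.45% of the counts in petal replicates 1, 2 and 3, against 23.7%, 21.3% and 16.8% in sepal replicates 1, 2 and 3. The 313 higher features held 5.55%, 6.03% and 5.91% in petals, against 1.84%, 1.99% and 2.50% in sepals. These shares describe the sets, since the same values chose them.

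Absence at the depth reached was also mostly on the petal side. In all 3 petal libraries 69 of the 18054 features tested had 0 counts while each sepal library had 10 or more, and 60 of them were called. The reverse held for 5 features, 3 of them called. Over all features tested 6.19% were called lower and 1.73% higher. Such features pass the filter on low counts only through the organ that has counts, so their calls add no support. Petal replicate 2 had the fewest counts of the 6 libraries, 4866644, and petal replicate 1 the fewest features detected, 17897. Whether this added zeros in petals was not tested. The highest mean level in the organ that had counts was 30.8 CPM among the 69 and 11 CPM among the 5. A count of 0 here means under the floor and does not show absence.

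Calls were found at every level of abundance and were more frequent among abundant features. With the features divided into 4 equal groups by mean CPM, in the group of the lowest levels, 1.22 to 8.04 CPM, 0.377% were higher and 2.88% lower. In the group of the highest levels, from 51.6 CPM up, 3.43% were higher and 9.77% lower. Lower calls outnumbered higher ones in each of the 4 groups. The median absolute log2 fold change of the called features was 6 in the lowest group and 1.66 in the highest. Calls at low levels were thus of larger differences, and how far the call shares follow what could be detected was not tested. Features called higher lay in 306 assembly genes and features called lower in 1065, with 0 assembly genes in both. This says little, since only 2987 of the 18054 features tested shared an assembly gene with another tested feature. Of the called features 76.7% were the only one of their assembly gene, against 75.6% of those tested.

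Features were named among those called at 4-fold or more, with no overlap between the groups and with no other feature of their assembly gene in the table. Of those higher in petals, the most abundant in petals was DN44845_c0_g1_i2|m.60208. It had 1709, 1723 and 1178 CPM in petal replicates 1, 2 and 3, against 276.2, 167.8 and 333.3 CPM in sepal replicates 1, 2 and 3. Every petal library lay above every sepal library, as the naming rule required. The log2 fold change was 2.57 ± 0.30 (SE, n = 3 each; edgeR quasi-likelihood adjusted p = 0.000772).

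Next came DN43257_c0_g4_i1|m.42060, with 1323, 1218 and 875.1 CPM in the petal libraries, against 132, 188.9 and 149 CPM in the sepal libraries. The groups were apart by the same rule, with a log2 fold change of 2.86 ± 0.26 (SE, n = 3 each; edgeR quasi-likelihood adjusted p = 0.000279).

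Of those lower in petals, the most abundant in sepals was DN44638_c1_g3_i1|m.57596. It had 2732, 2095 and 1032 CPM in petal replicates 1, 2 and 3, against 13980, 7108 and 5068 CPM in sepal replicates 1, 2 and 3. The libraries of each organ spread widely, and the lack of overlap between the organs was a condition of naming. The log2 fold change was -2.16 ± 0.44 (SE, n = 3 each; edgeR quasi-likelihood adjusted p = 0.0126), and the call was lost without petal replicate 2 (edgeR adjusted p = 0.0553).

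The second was DN44638_c1_g1_i2|m.57599, with 2061, 1752 and 949.5 CPM in petals, against 10730, 5491 and 4789 CPM in sepals, and a log2 fold change of -2.14 ± 0.38 (SE, n = 3 each; edgeR quasi-likelihood adjusted p = 0.00603). The IDs of both DN44638 features place them in one component of the assembly, DN44638_c1, so they may be near-identical transcripts that share reads, and they are not 2 independent cases.

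**Figure D2:**
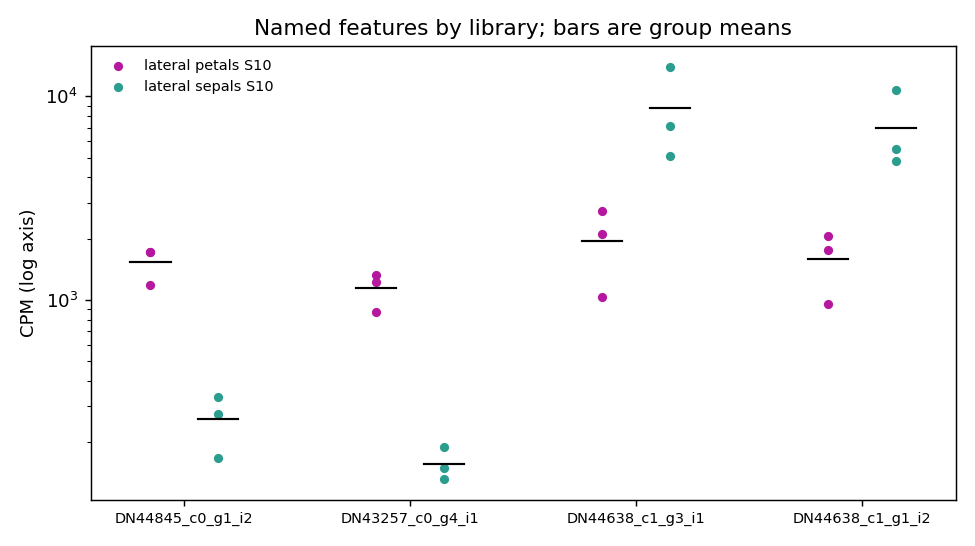
CPM (log axis) of the 4 named features in each library, with lateral petals left of lateral sepals, points for libraries and bars for group means. In each feature the 3 petal libraries lie wholly above (DN44845, DN43257) or wholly below (both DN44638 features) the 3 sepal libraries, which was a condition of naming.

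Levels outside the comparison were read from all 85 wild-type libraries scaled together, which gives CPM values on another scale than the fit above. DN44845_c0_g1_i2|m.60208 was high in young petals and in carpels. It averaged 2410 ± 170 CPM in lateral petals at S9 (SD, n = 2), 339 ± 90.4 at S12 and 10.3 ± 3.63 at S16 (SD, n = 3 each). The matching lateral sepals had 742 ± 507, 52.6 ± 25.7 and 17.6 ± 21.8 CPM. Carpels at S10 had 1680 ± 52.9 CPM and stamens at S10 355 ± 343, with stamen libraries between 127 and 749, while leaves and bracts averaged 112 ± 64.7 and 80.2 ± 55.5 CPM (SD, n = 4 each).

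DN43257_c0_g4_i1|m.42060 followed a similar course. Its lateral petal level was 1820 ± 148 CPM at S9 (SD, n = 2), 103 ± 32.8 at S12 and 0.188 ± 0.229 at S16 (SD, n = 3 each), against 519 ± 120, 12.0 ± 6.33 and 2.75 ± 0.901 CPM in lateral sepals. The petals were thus above the sepals at S9 and S12 and below them at S16, where the petal level lay under the floor of 3 counts. Carpels at S10 averaged 671 ± 303 CPM and leaves 124 ± 138.

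Both DN44638 features were abundant in leaves and bracts. DN44638_c1_g3_i1|m.57596 averaged 7720 ± 2090 CPM in leaves and 6170 ± 2580 in bracts (SD, n = 4 each), and DN44638_c1_g1_i2|m.57599 13100 ± 748 and 13700 ± 6290. At S16 they were at 23.4 ± 19.1 and 24.0 ± 19.4 CPM in lateral petals, against 95.0 ± 5.84 and 99.0 ± 9.11 in lateral sepals at S16 (SD, n = 3 each). At S9 the lateral petals had 1130 ± 272 and 1140 ± 206 CPM, and the lateral sepals 8460 ± 2890 and 9630 ± 3350 (SD, n = 2 each).

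The petal and sepal difference at S10 was looked for again in libraries that the comparison does not share, each pair in a fit of its own. The dorsal libraries of S10 may not be independent of the lateral ones. In each organ, deviations of same-numbered lateral and dorsal libraries from their group means correlated at 0.191 to 0.395. How far this raises the counts shared with dorsal organs was not tested. In dorsal petals against dorsal sepals at S10, 3048 of 18994 features were called (16%), 5.45% higher and 10.6% lower. Of the 313 features higher in lateral petals, 215 (68.7%) were also higher in dorsal petals and 4 were lower; they made up 20.8% of the dorsal higher list. Of the 1118 lower features, 939 (84%) were also lower and 1 was higher, 46.6% of the dorsal lower list. The dorsal calls numbered 1912 without dorsal sepal replicate 2, 1898 without dorsal petal replicate 3 and 958 with the spread from all 21 libraries of S10. Without lateral petal replicate 1, 188 higher and 928 lower features were called in both. Without lateral petal replicate 2 or 3 or lateral sepal replicate 2, the higher features called in both numbered 81, 95 and 91, and they numbered 67 when the lateral calls came from the spread of all 22 lateral libraries. The lower ones numbered 617 without lateral petal replicate 3 and 622 without lateral sepal replicate 2. Across the 17835 features tested in both fits the log2 fold changes correlated at r = 0.77 and rho = 0.66, a description over features, which are not independent.

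At S12, 3172 of 18541 features were called between lateral petals and lateral sepals (17.1%), 5.04% higher and 12.1% lower. Of the higher set, 143 of 313 (45.7%) were higher at S12 and 1 was lower, and of the lower set 823 of 1118 (73.6%) were lower and 5 were higher. The S12 calls numbered 1996 and 2009 without petal replicate 2 or 3 of S12, and 698 with the spread from all 22 lateral libraries. The shared features were 15.3% of the S12 higher list and 36.8% of the S12 lower list. Over the 17320 features tested at both stages the log2 fold changes correlated at r = 0.67 and rho = 0.55. Without lateral petal replicate 1 of S10, 138 higher and 843 lower features were shared. Without lateral petal replicate 2 or 3 or lateral sepal replicate 2 of S10, the higher count was 73, 78 and 70, and the lower count was 543 without lateral sepal replicate 2. With the S10 calls taken from the spread of all 22 lateral libraries, 50 higher features were shared. In all of lateral S10, lateral S12 and dorsal S10, 109 features were higher and 736 lower in petals.

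At S16 the count of calls moved with single libraries and with a pair of low-detection ones. Replicate 3 of lateral petals and replicate 3 of lateral sepals had 14692 and 16147 features detected, against 21356 to 21928 in the other 4 libraries. With them, 684 of 17216 features were called (3.97%), 1.23% higher and 2.74% lower, among them 22 of the 313 higher features (7.03%) and 191 of the 1118 lower ones (17.1%); 2 and 15 were called in the opposite direction. Without lateral petal replicate 1 of S10 23 higher and 195 lower features were shared. The S16 calls numbered 121 and 190 without petal replicate 1 or 2, and 182 and 175 without sepal replicate 1 or 2, against 971 without petal replicate 3 alone and 668 without sepal replicate 3 alone. Without both replicates 3, an alternative chosen after the data were seen, 4851 of 17657 were called (27.5%), 11.5% higher and 16% lower. Then 77 of the higher set (24.6%) were higher and 23 lower, and 670 of the lower set (59.9%) were lower and 98 higher.

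The named features kept their direction at S12 and in the dorsal pair. At S12 the log2 fold changes were 2.69 ± 0.37 for DN44845_c0_g1_i2|m.60208 and 3.09 ± 0.42 for DN43257_c0_g4_i1|m.42060, with edgeR adjusted p of 0.00162 and 0.00147. For DN44638_c1_g3_i1|m.57596 and DN44638_c1_g1_i2|m.57599 they were -2.17 ± 0.31 and -2.68 ± 0.45, with edgeR adjusted p of 0.00204 and 0.00433 (SE, n = 3 libraries a group). In dorsal petals against dorsal sepals the same 4 features, in the same order, had 1.83 ± 0.21, 2.90 ± 0.28, -1.65 ± 0.38 and -1.45 ± 0.32 (SE), with edgeR adjusted p of 4e-04, 0.000179, 0.0161 and 0.0134. At S16 none of the 4 was called by edgeR, with adjusted p between 0.143 and 0.864. Their log2 fold changes there, in the same order, were -0.82 ± 0.94, -3.73 ± 1.47, -2.01 ± 0.65 and -2.03 ± 0.60 (SE). The 2 features higher in petals at S10 thus had the opposite sign at S16, without a call.

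The mean level of each set, as log2(CPM + 1) averaged over its features, followed petals and sepals through the 4 stages. The higher set stood at 6.20 ± 0.0064 in lateral petals at S9, 6.16 ± 0.041 at S10, 4.73 ± 0.22 at S12 and 3.24 ± 0.085 at S16, against 4.51 ± 0.51, 4.47 ± 0.062, 3.60 ± 0.12 and 2.84 ± 0.075 in lateral sepals (SD, n = 2 at S9 and 3 at the other stages). The set's mean level was lower at S12 than at S10, and lower again at S16, in both organs. The libraries of the 2 organs did not overlap at any stage, but those of S10 chose the set. Over all features tested, lateral petals held 4.13 ± 0.075 at S10 and 3.96 ± 0.27 at S16, against 4.26 ± 0.024 and 4.04 ± 0.18 in lateral sepals. By that measure too the libraries of the 2 organs did not overlap at S9, S10 and S12, so a lack of overlap alone is not particular to the set.

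The lower set went the other way in petals. It stood at 3.20 ± 0.13 in lateral petals at S9, 3.46 ± 0.14 at S10, 4.29 ± 0.12 at S12 and 4.67 ± 0.064 at S16, against 4.79 ± 0.82, 5.75 ± 0.28, 6.02 ± 0.12 and 5.69 ± 0.071 in lateral sepals (SD). The petal and sepal libraries did not overlap at any of the 4 stages, and over all features tested they did not at S9, S10 and S12. Dorsal petals held 3.63 ± 0.14 at S10 and 4.74 ± 0.1 at S16, against 5.62 ± 0.073 and 6.05 ± 0.13 in dorsal sepals.

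The distance between the organs was smallest at S16. In lateral organs, petals minus sepals in mean log2(CPM + 1) was 1.12 for the higher set at S12 and 0.4 at S16, and -1.72 and -1.02 for the lower set. In dorsal organs it was 1.18, 1.35, 1.18 and 0.49 at S9, S10, S12 and S16 for the higher set, and -1.94, -2, -1.85 and -1.31 for the lower set. The lateral values at S10, 1.7 and -2.29, are those that chose the sets. At S9 they were 1.7 and -1.59, but lateral sepal replicate 1 of S9 had only 9877 features detected. Without it they were 1.34 and -2.17, on 1 sepal library. These distances are descriptions, and the test of a change by feature follows further on for S10 and S12.

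**Figure D3:**
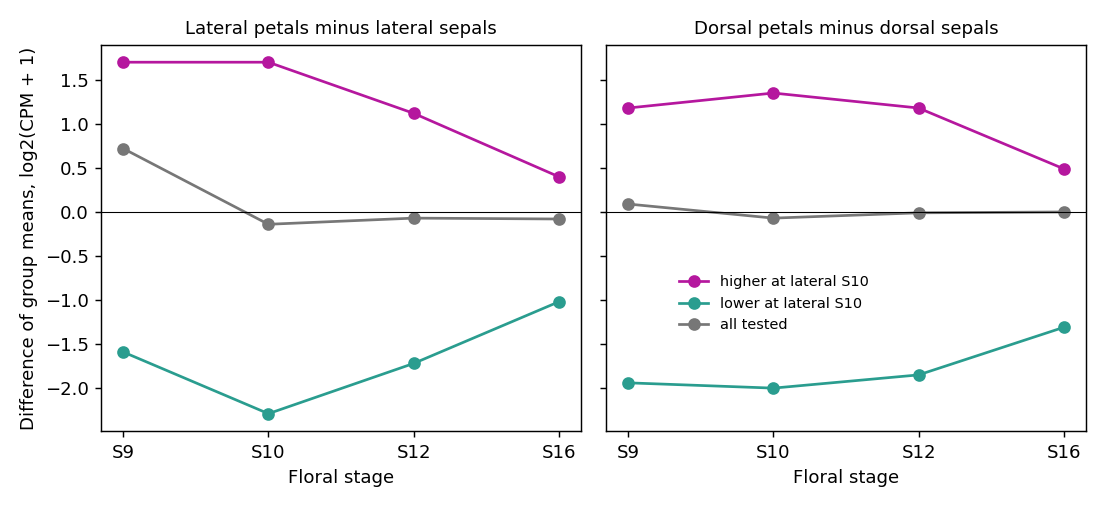
Difference of group means, petals minus sepals, in mean log2(CPM + 1) at each floral stage for the features higher and lower at lateral S10 and for all features tested, in lateral organs (left) and dorsal organs (right). The higher set lies above 0 and the lower set below 0 at all stages in both panels, nearest to 0 at S16; the lateral value at S9 for all features, 0.72, was 0.06 without the low-detection sepal library.

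Ventral sepals, whose S10 libraries took no part in the choice, held the sets at nearly the level of lateral sepals. They averaged 4.46 ± 0.049 for the higher and 5.80 ± 0.23 for the lower set (SD, n = 3). Of the 1118 lower features, 1112 (99.5%) were no more than 2-fold below the lateral sepal level in ventral sepals and 1042 (93.2%) in dorsal sepals, against 96.9% and 95.1% of all features tested. Of the 313 higher features, 267 (85.3%) were no more than 2-fold below the lateral petal level in dorsal petals, against 94.6% of all features tested.

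Among other organs the higher set had its highest mean level in carpels and the lower set in bracts and leaves. The higher set averaged 5.19 ± 0.14 in stamens and 5.65 ± 0.24 in carpels at S10 (SD, n = 3 each), and 4.40 ± 0.19 in leaves and 4.12 ± 0.18 in bracts (SD, n = 4 each). The lower set averaged 3.66 ± 0.086 in stamens and 3.29 ± 0.29 in carpels, and 5.17 ± 0.21 in leaves and 5.57 ± 0.16 in bracts. Over all features tested these organs lay between 3.88 and 4.22.

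Feature by feature, the organ with the highest level among stamens at S10, carpels at S10, leaves and bracts was the carpel for 58.5% of the higher set and the stamen for 26.8%, while leaves and bracts led for 8.95% and 5.75%. For the lower set it was the bract for 46.5%, the leaf for 33.2%, the stamen for 11.8% and the carpel for 8.5%. Over all features tested the shares were 25.2% for stamens, 26% for carpels, 23.5% for leaves and 25.2% for bracts. Few members of either set were far lower in every one of these organs, but their share was above that of all features tested. The reference levels, of lateral petals and lateral sepals at S10, also chose the sets. In all, 19 of the 313 higher features (6.07%) were at least 4-fold below their lateral petal level in all 4 of those organs, and 63 of the 1118 lower features (5.64%) at least 4-fold below their lateral sepal level, as were 0.454% and 0.847% of all features tested with the same measures.

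**Figure D4:**
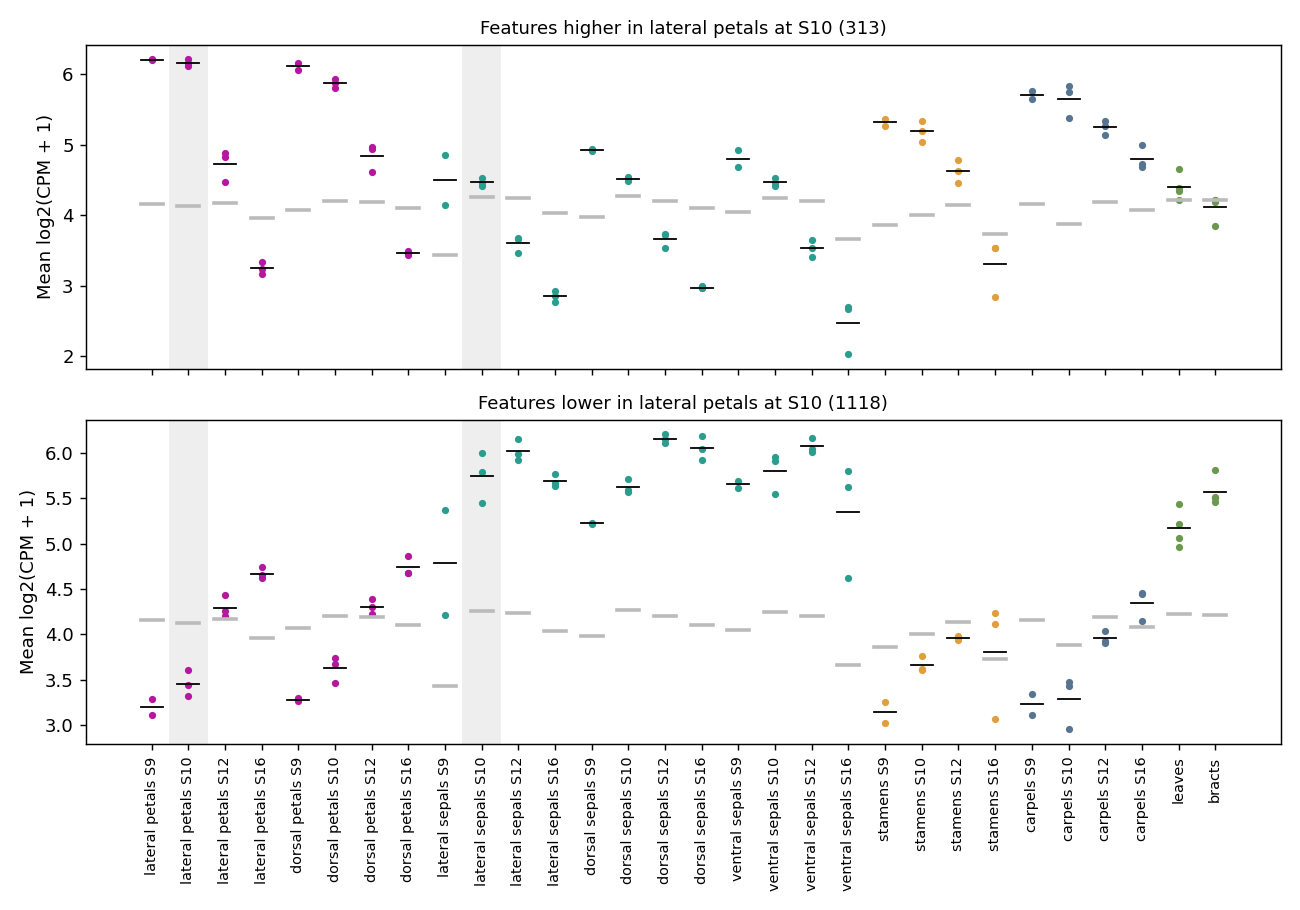
Mean log2(CPM + 1) of the features higher (top) and lower (bottom) in lateral petals at S10 in each of the 85 wild-type libraries, by group; points are libraries, black bars group means and grey bars the group mean over all features tested. The shaded groups are the 2 compared; the higher set is near 6 in lateral and dorsal petals at S9 and S10 and lower in all sepals, and the group means of the lower set are above 5 in sepals at S10, leaves and bracts and below 4 in petals, stamens and carpels at S10.

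Lists of features made only from other libraries were then read in the lateral comparison. Each has a fold of at least 4 and an adjusted p under 0.05 in its own edgeR fit, and its shares are read beside those of all features tested, 1.73% higher and 6.19% lower. Vegetative-high features, above stamens and carpels in both leaves and bracts, were the most one-sided. Of 922, 677 were tested, 1 was higher in lateral petals (0.148%) and 297 were lower (43.9%), with a median log2 fold change of -1.58. Their summed level was 31700, 27700 and 21600 CPM in petal replicates 1, 2 and 3, against 108000, 110000 and 72600 CPM in the sepal replicates. The highest petal library was far below the lowest sepal library. Without petal replicate 1 the counts were 1 and 308, and over all single libraries left out the lower count lay between 210 and 308.

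Carpel-high features leaned to the petal side. Of 207, 182 were tested, 29 were higher in lateral petals (15.9%) and 4 lower (2.2%), against 1.73% and 6.19% of all features, with a median log2 fold change of 0.58. Replicates 1 of carpels and stamens at S10, from which the list was made, had only 13139 and 14943 features detected. Made without them, an alternative chosen after the data were seen, the list held 348 features, of which 303 were tested, 42 were higher (13.9%) and 4 lower (1.32%). The 207 features of the first list summed to 22800, 31800 and 26000 CPM in petals, against 21800, 14000 and 20200 CPM in sepals. Every petal library lay above every sepal library, although petal replicate 1 and sepal replicate 1 were close. Of this list of 207, 30 were higher and 5 lower without petal replicate 1. The higher count was 13 without petal replicate 2, 17 without petal replicate 3 and 15 without sepal replicate 2. Carpels at S10 themselves held 46100 to 65200 CPM of these features, and between 7 and 24 of the 207 were at 0 in each petal and sepal library. The part of carpel tissue carried into a dissected sample was not tested.

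The summed level of stamen-high features in petals and the sign of their median depended on petal replicate 1. Of 793, 361 were tested, 18 were higher (4.99%) and 13 lower (3.6%), against 1.73% and 6.19% of all features, so the higher share lay above that of all features and the lower share below it. Their median log2 fold change was 0.332. Without petal replicate 1, the library with the high stamen sum, 379 were tested, 13 were higher and 20 lower, and the median was -0.0829. Over all features in that fit 1.43% were higher and 5.91% lower. Over all single libraries left out there were 7 to 13 higher, fewest without petal replicate 3, and 4 to 20 lower, fewest without sepal replicate 1. The other petal libraries, at 6730 and 6500 CPM, lay within the range of the sepal libraries. Between 245 and 363 of the 793 were at 0 in each of the 6 libraries.

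Features that change as other organs mature separated the 2 groups as well. Of those rising from S10 to S16 in ventral sepals, 689 of 790 were tested, and 11 were higher (1.6%) and 165 lower (23.9%) in lateral petals, with a median log2 fold change of -0.852. Of those rising in dorsal petals, 1769 of 2433 were tested, and 13 were higher (0.735%) and 400 lower (22.6%), with a median of -0.925. The higher shares were at or below the 1.73% of all features and the lower shares above the 6.19%. These lists share 624 features and are not independent of each other. The dorsal petal list was chosen partly by low levels in dorsal petals at S10, petals of the same stage as the lateral ones. That choice favours a lower reading in lateral petals, and how far it accounts for the counts was not tested. The rising-in-petals list summed to 36900, 35400 and 31500 CPM in lateral petals, against 84100, 76900 and 59900 CPM in lateral sepals, so that the petal libraries held less of it than any sepal library. Without petal replicate 1 the lower counts were 170 and 406. They were smaller without sepal replicate 1, sepal replicate 2 or petal replicate 3, at 103, 94 and 98 for the ventral sepal list and 251, 245 and 253 for the dorsal petal list. Made without replicate 3 of S16, an alternative chosen after the data were seen, the ventral sepal list had 1255 tested features. Of these 14 were higher (1.12%) and 207 lower (16.5%), with a median of -0.534. For the dorsal petal list made so, 12 were higher (0.593%) and 413 lower (20.4%), with a median of -0.744.

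Falling features were called higher more often than all features, in both lists. Of those falling in dorsal petals, 2547 of 2641 were tested, and 180 were higher (7.07%) and 134 lower (5.26%), against 1.73% and 6.19% of all features, with a median log2 fold change of 0.387. The lower share was thus near that of all features. This list was chosen partly by high levels in dorsal petals at S10, which favours a higher reading in lateral petals. How far that accounts for the counts was not tested. Without petal replicate 1 there were 166 higher and 131 lower. The balance of the counts turned without petal replicate 2, with 65 higher and 93 lower, without petal replicate 3, with 83 and 89, and without sepal replicate 2, with 70 and 104. Of those falling in ventral sepals, 996 of 1005 were tested, and 80 were higher (8.03%) and 149 lower (15%), both above the shares of all features, and 77 and 140 without petal replicate 1. Here the counts and the median, 0.25, differ in direction: more features were called lower, while most of the list had a positive log2 fold change. The choice by high levels in ventral sepals at S10 favours a lower reading in lateral petals, which was not tested either. The higher count was 35 without petal replicate 2, 41 without petal replicate 3 and 36 without sepal replicate 2. Made without the low-detection ventral sepal library of S16, an alternative chosen after the data were seen, this list had 148 features higher (5.49%) and 268 lower (9.94%).

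**Figure D5:**
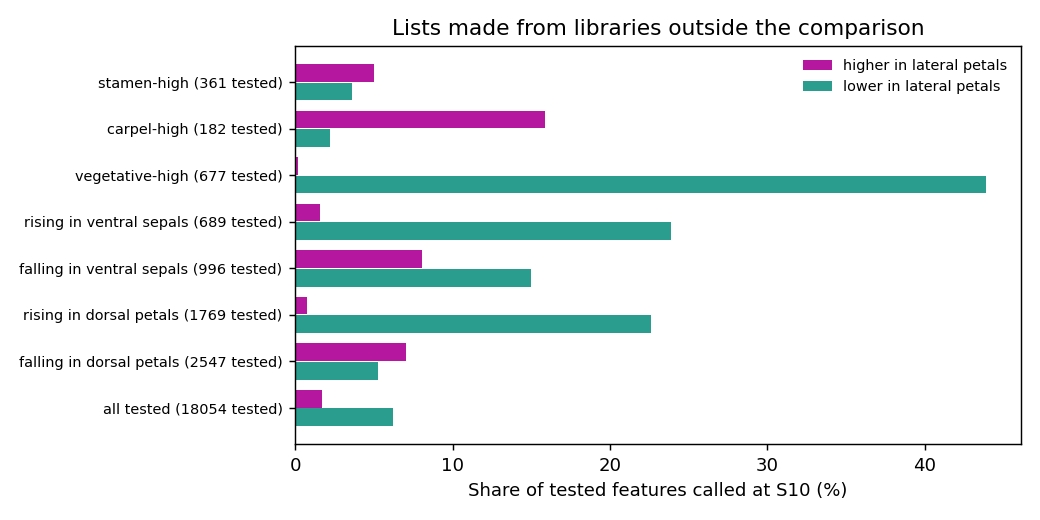
Share (%) of the tested features of each list called higher (upper bar) or lower (lower bar) in lateral petals at S10, with all features tested at the bottom. The vegetative-high list reaches 43.9% lower and 0.148% higher, against 6.19% and 1.73% over all features, and the carpel-high list 15.9% higher; no test of the lists was made.

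Whether the lateral difference itself changed from S10 to S12 was tested with an interaction term over 12 libraries. Of 19408 features, 61 were called (0.314%), 54 (0.278%) with a difference that moved towards petals and 7 (0.0361%) with one that moved towards sepals. Before adjustment 1776 features had a p under 0.05. The count was 32, 17 and 38 without sepal replicate 1, 2 or 3 of S12, and 39 and 38 without petal replicate 1 or 3 of S12. It was 53 without petal replicate 1 of S10, 113 without a filter on low counts and 466 with DESeq2. A feature called at 1 stage only is not shown to differ between the stages.

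Of the called features that were alone in their assembly gene, the most abundant that moved towards petals was DN46111_c2_g2_i1|m.79149. It had 47.54, 64.11 and 35.12 CPM in lateral petals at S10 and 1045, 661.2 and 729.5 CPM at S12, against 975.1, 741.1 and 734.8 CPM in lateral sepals at S10 and 2435, 1997 and 3224 CPM at S12. Petals lay below sepals in every library of each stage, by a log2 fold change of -4.06 ± 0.30 at S10 and -1.69 ± 0.26 at S12 (SE), and the change was 2.41 ± 0.39 (SE, n = 3 a group; edgeR quasi-likelihood adjusted p = 0.0179). The call was lost without sepal replicate 1 or 2 of S12 (edgeR adjusted p = 0.0543 and 0.0589).

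DN43952_c0_g2_i1|m.49128 moved in the same way. It had 14.19, 29.18 and 11.06 CPM in lateral petals at S10 and 1002, 327.8 and 452.7 CPM at S12, against 586.8, 562.7 and 496.9 CPM in lateral sepals at S10 and 2141, 1198 and 1319 CPM at S12. The change was 3.55 ± 0.60 on the log2 scale (SE, n = 3 a group; edgeR quasi-likelihood adjusted p = 0.0232). It was lost without sepal replicate 2 or 3 of S12 or petal replicate 1 of S10 (edgeR adjusted p = 0.0918, 0.073 and 0.068). At S16 it averaged 2190 ± 750 CPM in lateral petals and 2840 ± 484 CPM in lateral sepals (SD, n = 3 each, 85-library scale), and the libraries overlapped, while leaves had 0.245 ± 0.232 CPM (SD, n = 4).

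Towards sepals, DN48374_c4_g7_i1|m.115240 changed sides. It had 682.2, 619.3 and 398.6 CPM in lateral petals at S10 and 305.3, 383.1 and 271.3 CPM at S12, against 171.9, 198.8 and 238.2 CPM in lateral sepals at S10 and 1259, 1447 and 867.6 CPM at S12. Petals were the higher organ at S10 and the lower one at S12, with no overlap at either stage. The change was -3.38 ± 0.37 on the log2 scale (SE, n = 3 a group; edgeR quasi-likelihood adjusted p = 0.002) and kept its call in all 16 alternatives run.

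DN40054_c0_g1_i1|m.26483 had 174.5, 162.8 and 176.5 CPM in lateral petals at S10 and 256.4, 224.6 and 205.4 CPM at S12, against 251.6, 251.3 and 209.5 CPM in lateral sepals at S10 and 798.7, 707.7 and 735.5 CPM at S12. Its change was -1.24 ± 0.24 on the log2 scale (SE, n = 3 a group; edgeR quasi-likelihood adjusted p = 0.0447). The call held in only 2 of 16 alternatives, with the direction unchanged in all 16.

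The difference between lateral petals and sepals was also tested against that between dorsal petals and sepals at S10. Of 19419 features, 30 were called by edgeR (0.154%), 24 (0.124%) with a lateral difference further towards petals and 6 (0.0309%) further towards sepals, and 951 had an unadjusted p under 0.05. This fit has no block for the replicate number, and with that block 90 were called. The deviations of same-numbered libraries from their group means correlated at 0.295, 0.192 and 0.369 between lateral and dorsal petals, and at 0.395, 0.191 and 0.241 between lateral and dorsal sepals. DESeq2 called 152. Leaving out any 1 library brought the count down to between 2 and 11, except for lateral sepal replicate 3, without which it was 22. It was 3 without lateral petal replicate 1, and no feature of this test is named. Of the 4 features named at S10, none was called in this test, with edgeR adjusted p of 1 for each and differences between -0.68 and 0.74 on the log2 scale.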

How the data were processed

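Per the labels' protocols, total RNA was isolated with a TIANGEN kit (RNAprep Pure Plant) and libraries were built with Fast RNA-seq Lib Prep Kit V2. TopHat2 and RSEM are listed in the submitters' processing notes with no version or role. Reference, annotation, strandedness and read filters: not given in the sources used here. What the authors deposited for each library is a table of estimated counts by feature, without normalization, of which 93.2% to 99.2% were whole in the 85 wild-type libraries; 3875 of 32115 features were at 0 in all of them. Near-identical transcripts can share reads, which makes single features of such families uncertain.

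Rounded estimated counts entered edgeR 4.0.16 (R 4.3.3; filterByExpr, TMM scaling, robust quasi-likelihood F tests, Benjamini-Hochberg adjusted p under 0.05 over all features tested), with 1 fit for each pair of groups and 12 libraries for each interaction. The common biological coefficient of variation was 0.42 for the lateral S10 pair. SE was computed as the absolute log2 fold change over the square root of F. Levels in other groups use TMM scaling of all 85 libraries, and mean log2 levels a pseudocount of 1. Lists came from stamens and carpels at S10, leaves and bracts, and from S16 against S10 in ventral sepals and dorsal petals; they were described by counts and medians, and setting features at 0 in a whole group to a floor of 3 counts over that group moved no median.

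The S10 rule named, among called features of at least 4-fold that did not overlap and were alone in their assembly gene, the 2 most abundant in petals and the 2 most abundant in sepals; for the change to S12 it named the 2 most abundant features moving each way. The comparison, lists and rule were chosen with earlier results of these data known. Lists of genes by name could not be used. Alternatives were DESeq2 1.42.0, RLE scaling, no filter, the replicate number as a block, other libraries sharing the spread, counts summed over assembly genes, leaving out each replicate, lists at 2-fold, and, chosen after the data were seen, leaving out low-detection libraries.

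Replicates of the compared groups did not agree within sampling noise (lowest chi-square per feature 15.3 for features summing to at least 20 counts). The labels do not say what replicate numbers mark. Deviations of same-numbered libraries from their group means correlated above 0.1 in every pair at S12 (0.442, 0.186 and 0.101), S16 (0.224, 0.342 and 0.285) and dorsal S10 (0.231, 0.115 and 0.341). At S10 they also did so between lateral and dorsal petals and between lateral and dorsal sepals. The numbers pair those libraries by this measure alone. A different number could correlate better: at S12 petal replicate 3 had 0.224 with sepal replicate 2, against 0.101 with sepal replicate 3. Between lateral petals and lateral sepals at S10 not every pair passed. The 4 silencing libraries were not analysed here.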

Additional observations from a re-analysis of the deposited data

Results flagged for a closer look

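In bracts, 1 of the 4 libraries stood apart for both sets of features: replicate 4 had a mean log2(CPM + 1) of 3.85 for the features higher in lateral petals, against 4.18 to 4.22 in bract replicates 1 to 3, and 5.81 for the features lower in lateral petals, against 5.46 to 5.51. Among 20 such groups of 4 values looked at, 2 stood apart, and chance flags about 1 in 20.

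The difference between petals and sepals itself changed between contrasts by a test of that change. It changed from S10 to S12 in lateral organs for 61 of 19408 features tested (0.314%). Between lateral and dorsal organs at S10 it differed for 30 of 19419 (0.154%), both by edgeR quasi-likelihood at an adjusted p under 0.05. Both counts moved with single libraries left out, as given further on. The named features among the 61 moved by 2.41 (DN46111_c2_g2_i1|m.79149), 3.55 (DN43952_c0_g2_i1|m.49128), -3.38 (DN48374_c4_g7_i1|m.115240) and -1.24 (DN40054_c0_g1_i1|m.26483) on the log2 scale. The call of the last of these held in only 2 of 16 alternatives.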

How the results depend on the processing

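Every alternative run kept more features lower than higher in lateral petals at S10, and the 4 features named there kept their direction in all 13 alternatives. The kept direction adds no support, since naming required groups without overlap and fits of the same libraries could then hardly turn it. Leaving out each library in turn gave 823 to 1373 calls at S10, 119 to 273 higher and 688 to 1105 lower. It gave 1996 to 3862 calls at S12, 121 to 971 at S16, 1898 to 3201 in dorsal organs, 17 to 88 for the change from S10 to S12 and 2 to 22 for lateral against dorsal. DESeq2 called 2195 features at S10, 569 of them higher and 1626 lower, 1734 at S16, and 466 and 152 in the 2 interaction tests. Its false calls on simulated counts exceeded the nominal share, so these larger counts do not show greater sensitivity. With the spread taken from all 22 lateral libraries there were 860 calls at S10, of which 88 were higher, and 698 at S12; with all 21 libraries of S10 there were 915 at S10, 171 higher and 744 lower, and 958 in dorsal organs. Without a filter on low counts the change from S10 to S12 had 113 calls, and S16 without both replicates 3 had 4851. RLE scaling gave 292 higher and 1135 lower features at S10, and sums over assembly genes 309 and 1063.

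For the lists, higher and lower, leaving out each library gave 7 to 13 and 4 to 20 stamen-high, 13 to 31 and 1 to 5 carpel-high, 1 and 210 to 308 vegetative-high, 6 to 11 and 94 to 170 rising in ventral sepals, 35 to 83 and 107 to 140 falling in ventral sepals, 6 to 13 and 245 to 406 rising in dorsal petals, and 65 to 175 and 89 to 131 falling in dorsal petals. Lists at 2-fold, which are longer, gave 24 stamen-high lower, 61 and 10 carpel-high, 2 vegetative-high higher and 21 rising in dorsal petals higher. With DESeq2 there were 28 and 24 stamen-high, 2 vegetative-high higher, 135 falling in ventral sepals higher, 27 rising and 298 falling in dorsal petals higher. Made without the low-detection libraries, the stamen-high list had 20 lower and the list falling in ventral sepals 148 higher and 268 lower.

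The replicate number as a block gave 1490 calls at S10, 1253 of them among the 1431; same-numbered lateral petals and sepals correlated at 0.128, -0.0357 and 0.206 there, so that not every pair passed 0.1, although same-numbered lateral and dorsal libraries of 1 organ did, and not every library correlated best with its own number. The block gave 90 calls for lateral against dorsal and ended the call of DN40054_c0_g1_i1|m.26483 (edgeR adjusted p = 0.062), whose adjusted p without single libraries lay between 0.0527 and 0.136. It changed no other call of a named feature and moved no other count by over 1.5 times; S12, S16 and dorsal S10 had 3701, 946 and 3741 calls. Where no cause shows in how an alternative was made, the cause was not tested. Depth limits what can be said of features near the floor, and 3 libraries a group limit the smaller differences.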
